A study of Mus musculus with 6 samples.

Results

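Prss12 and Nacc2 are the 2 genes described here, out of 11162 genes listed in an RNA-seq table of naive CD8 T cells sorted for high or low reporter fluorescence. They were found by symbol and had been chosen by their RPKM values, because both were much lower in the GFP-hi libraries. The difference between the populations is therefore what chose them, and it is given below as a description with no test. All 6 libraries came from spleen cells of mice carrying Nur77-GFP, the transgene Tg(Nr4a1-EGFP)GY139Gsat, in which green fluorescent protein is expressed under control of the Nr4a1 locus. Every cell sorted was CD8+, CD44lo, CD62Lhi and Qa2hi and carried OT-I, a transgenic T-cell receptor, so neither population lacks the reporter or the receptor. The 2 groups differed, per the labels, in reporter brightness alone: 3 libraries were made from GFP-hi cells and 3 from GFP-lo cells. The age of the mice, any treatment, and whether libraries came from separate mice are not given in the sources used here, so the spread between libraries may be technical.

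Prss12 encodes neurotrypsin, a secreted serine protease of the trypsin fold whose catalytic part follows a kringle domain and several scavenger receptor cysteine-rich domains. It is known from the nervous system, where it is released at synapses and cuts the matrix proteoglycan agrin, and agrin in turn acts through receptors such as Lrp4 and dystroglycan. Nacc2 encodes a nuclear protein with a BTB domain and a BEN domain, a relative of Nacc1, which has been described as a transcriptional repressor that brings the NuRD deacetylase complex to promoters, among them that of Mdm2, the ubiquitin ligase of p53. Neither is a standard marker of naive CD8 T cells.

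In GRCm38.p6 coordinates from RefSeq, Prss12 (Entrez 19142) spans chr3:123446913-123506602 on the plus strand, and Nacc2 (Entrez 67991) spans chr2:26055535-26122811 on the minus strand. GENCODE M21 gives Prss12 1 transcript of 11 exons and 2602 bases. It gives Nacc2 8 transcripts, of which the full-length coding ones measure 6378 and 6675 bases and begin at different first exons. Both genes matched RefSeq promoter windows, Prss12 with 1 window and Nacc2 with 2, each running from 250 bases before to 50 bases after a transcription start. Both genes were chosen for their lower levels in GFP-hi, and shared control was not tested. The 250 bases upstream of each start are shown as sequences in which shared words can be sought. They read 5′ to 3′ on the strand of the gene, and capitals mark the word that was matched among 10 that were searched. The Prss12 stretch is chr3:123446663-123446912 (plus strand), that of the upstream Nacc2 start is chr2:26122812-26123061 (minus strand), and that of the downstream Nacc2 start is chr2:26092397-26092646 (minus strand).
Prss12: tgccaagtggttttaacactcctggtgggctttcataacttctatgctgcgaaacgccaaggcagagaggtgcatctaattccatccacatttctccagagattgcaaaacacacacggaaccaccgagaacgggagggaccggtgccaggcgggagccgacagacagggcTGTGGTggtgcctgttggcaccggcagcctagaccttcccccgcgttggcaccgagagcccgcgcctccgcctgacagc
Nacc2, upstream start: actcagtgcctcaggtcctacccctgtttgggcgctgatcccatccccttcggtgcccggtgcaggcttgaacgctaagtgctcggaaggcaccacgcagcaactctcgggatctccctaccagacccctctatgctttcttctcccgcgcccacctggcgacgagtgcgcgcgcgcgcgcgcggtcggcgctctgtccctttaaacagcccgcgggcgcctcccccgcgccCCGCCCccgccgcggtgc
Nacc2, downstream start: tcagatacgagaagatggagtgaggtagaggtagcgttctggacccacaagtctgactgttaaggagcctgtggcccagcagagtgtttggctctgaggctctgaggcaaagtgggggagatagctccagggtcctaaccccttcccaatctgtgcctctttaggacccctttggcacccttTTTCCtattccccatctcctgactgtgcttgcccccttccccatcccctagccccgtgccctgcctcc

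The capitals in Prss12 are TGTGGT, a Runx word, from 79 to 74 bases before the start. Of all 32851 RefSeq promoter windows of this length, 16.8% hold it on either strand. Prss12 also had the Klf word GGGTGG at bases 4 to 9 and 9 to 14 after the start, in copies that overlap by a single base, and 31.5% of windows hold that word. The capitals upstream of the first Nacc2 start are the reverse complement of GGGCGG, an Sp1 word, from 18 to 13 bases before the start (35.7% of windows). Those of the downstream Nacc2 start are the reverse complement of GGAAA, the NFAT core, from 68 to 64 bases before the start (61.3% of windows). None of the 10 words was found at both genes. The core of the Nr4a monomer site (AAGGTCA, in 4.72% of windows) and the words for AP-1 (TGACTCA, 5.20%), Ets (CCGGAAG, 8.86%), Tcf/Lef (CTTTGA, 16.0%), the E-box (CACGTG, 7.15%) and the TATA box (TATAAA, 13.6%) were in none of the 3 windows. The starts also differ in base composition. The window of the upstream Nacc2 start was 71.0% G and C with 39 CpG dinucleotides, a CpG observed-to-expected ratio of 1.05 that was above that of 96.4% of windows. The downstream Nacc2 start had 56.3%, 4 CpG and a ratio of 0.170 (above 24.1% of windows), and Prss12 lay between them with 61.3%, 19 CpG and a ratio of 0.674 (above 69.0%). These matches and contents describe the letters only, and which Nacc2 start the cells used was not analysed here.

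Prss12 had 1.31, 1.34 and 2.57 RPKM in the 3 GFP-hi libraries and 7.91, 7.79 and 8.31 RPKM in the 3 GFP-lo libraries. RPKM is reads per kilobase of transcript scaled to the size of the library, so levels of different genes can be compared. The groups did not overlap, and the lowest GFP-lo library stood 5.22 RPKM, or 3.03-fold, above the highest GFP-hi library. The means were 1.74 ± 0.720 RPKM in GFP-hi against 8.01 ± 0.272 RPKM in GFP-lo (SD, n = 3 each), a ratio of 4.60. On the log2(RPKM + 1) scale, which understates the change of low genes, the difference of GFP-hi minus GFP-lo was -1.75. In terms of level, the GFP-lo mean of Prss12 exceeded that of 55.7% of listed genes and its GFP-hi mean that of 22.2%. Bulk values of this kind cannot tell fewer cells with the transcript from less transcript in each cell.

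Nacc2 had 0.631, 0.666 and 0.743 RPKM in the GFP-hi libraries and 2.53, 2.30 and 2.87 RPKM in the GFP-lo libraries. Again the groups did not overlap, with a gap of 1.56 RPKM and a 3.09-fold distance between the lowest GFP-lo and the highest GFP-hi library. Nacc2 was the scarcer transcript in every library. Its means were 0.680 ± 0.0573 RPKM in GFP-hi against 2.57 ± 0.289 RPKM in GFP-lo (SD, n = 3 each), a ratio of 3.77, and the difference on the log2(RPKM + 1) scale was -1.08. The pseudocount of 1 RPKM compresses this gene more than Prss12: the plain log2 ratios of the means were -1.92 for Nacc2 and -2.20 for Prss12. The GFP-lo mean of Nacc2 exceeded that of 28.9% of listed genes and the GFP-hi mean that of 12.1%. Genes entered the comparison with a mean of at least 1 RPKM over the 6 libraries, and both members did, but the GFP-hi mean of Nacc2 was under 1, so it passed only through its GFP-lo level. That held for 57 of the 9351 genes compared.

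**Figure D1:**
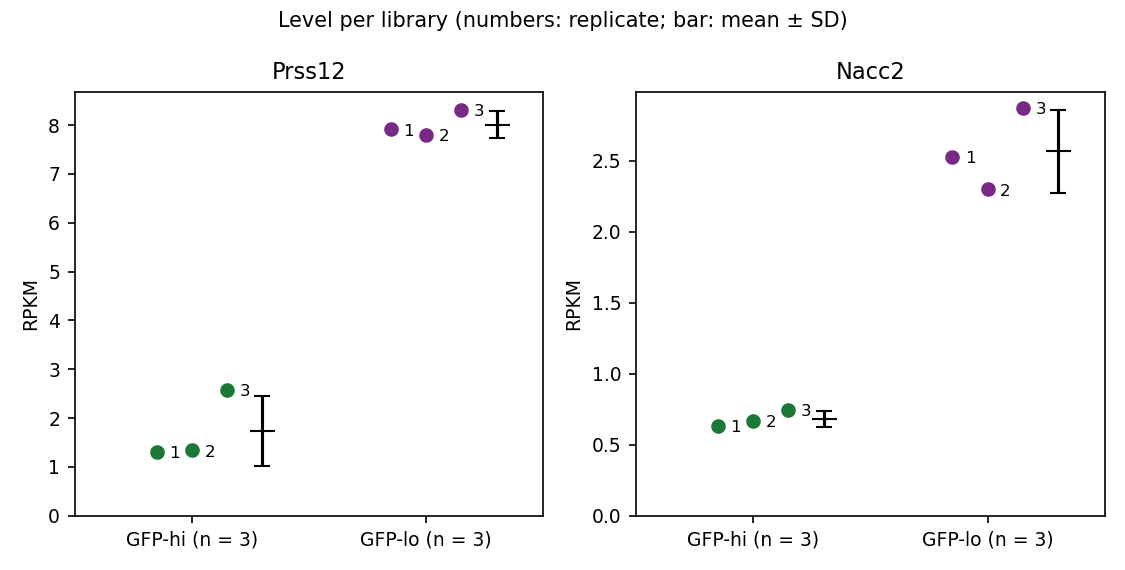
RPKM of Prss12 and Nacc2 in each library (points), with the mean and SD of each group of 3. The GFP-lo libraries lie above every GFP-hi library for both genes, at 7.79 to 8.31 against 1.31 to 2.57 RPKM for Prss12 and at 2.30 to 2.87 against 0.631 to 0.743 RPKM for Nacc2.

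Prss12 was ranked first among the falls of all 9351 genes, both on the log2(RPKM + 1) scale, where Slc6a19, an amino acid transporter, came next at -1.38, and by the plain ratio of means, where Il18r1, a chain of the interleukin 18 receptor, came next at 3.82. Nacc2 was ranked 6 on the log2 scale, just behind Cd40lg (-1.13), the CD40 ligand, and just ahead of Pde2a (-0.99), a cyclic nucleotide phosphodiesterase. By the ratio of means Nacc2 was ranked 3, between Il18r1 (3.82) and Slc6a19 (3.09). Falls of 1 or more on the log2 scale were seen in 6 genes in all, against 26 rises of that size, so Nacc2 stood just inside and Pde2a just outside that mark. Of the genes compared, 9.84% had 3 GFP-hi values all below the 3 GFP-lo values, as the members did, and 17.1% the opposite, so such separation was common among genes that were not chosen for it.

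**Figure D2:**
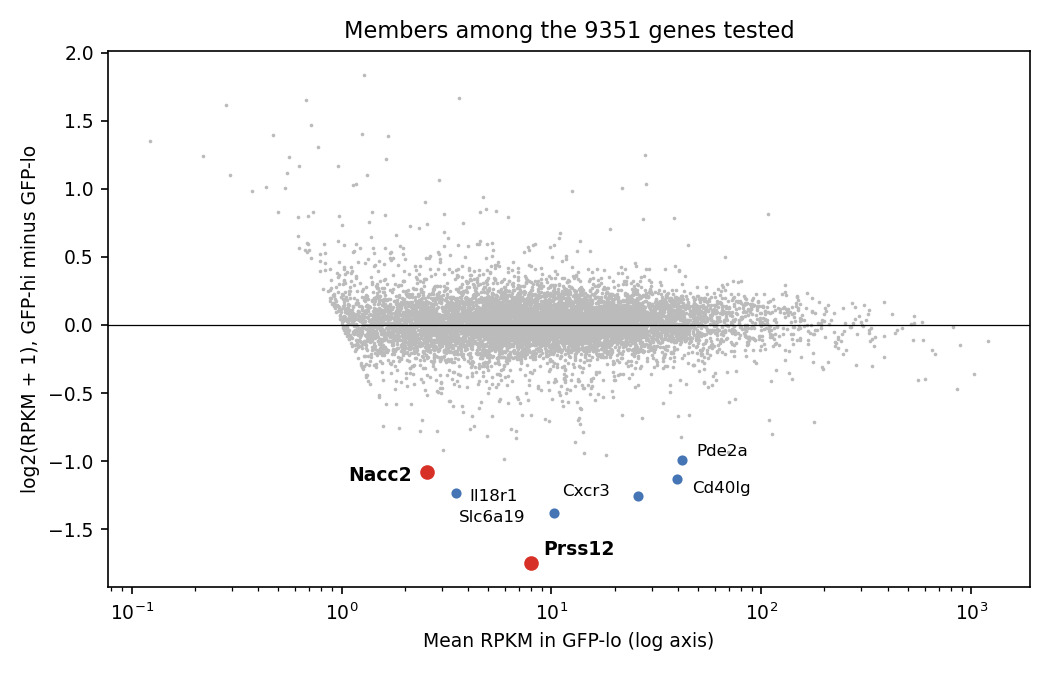
Each of the 9351 genes by its mean RPKM in GFP-lo (log axis) and its difference between the groups on the log2(RPKM + 1) scale, with Prss12 and Nacc2 in red and the genes ranked near them in blue. Prss12 is the lowest point at -1.75, and Nacc2, at -1.08, has a lower GFP-lo level than the other labelled genes.

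The members differed in how even their libraries were. Prss12 was uneven in GFP-hi, where the third library had 1.96 times the lowest value, and even in GFP-lo, where the highest was 1.07 times the lowest. Its coefficient of variation was 41.4% in GFP-hi and 3.40% in GFP-lo. On the log2(RPKM + 1) scale its SD within GFP-hi, 0.358, exceeded that of 98.1% of genes, whose median was 0.0843, whereas its SD within GFP-lo, 0.0434, exceeded that of 20.0% of genes (median 0.0798). Nacc2 showed no such contrast. Its coefficients of variation were 8.43% in GFP-hi and 11.3% in GFP-lo, and its SDs of 0.0489 and 0.116 exceeded those of 24.1% and 72.6% of genes.

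The reads behind these values show what counting error alone would give. Depths recovered from the RPKM steps ran from 26170000 to 35940000 reads per library, and the Prss12 values came out at 97, 118 and 197 reads in GFP-hi and 740, 576 and 566 reads in GFP-lo, each within 0.043 of a whole number. The exact Poisson 95% intervals, which cover counting error only, were 1.06 to 1.60, 1.11 to 1.60 and 2.22 to 2.96 RPKM in the GFP-hi libraries. The interval of the third library did not meet those of the others, but separate libraries commonly differ by more than counting error. In GFP-lo the intervals were 7.35 to 8.50, 7.17 to 8.45 and 7.64 to 9.03 RPKM, and all of them overlapped. For Nacc2 the transcript length behind its RPKM is not known. Its values correspond to 114, 144 and 140 reads in GFP-hi and 579, 416 and 479 in GFP-lo with the 6378-base transcript, and to 120, 151 and 146 against 606, 436 and 502 with the 6675-base transcript. Neither gene was near the limit of detection in any library.

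Without the third GFP-hi library the Prss12 difference was -1.95 on the log2(RPKM + 1) scale, and it was between -1.76 and -1.64 when any other library was left out. That library also had the highest summed level of the memory CD8 T cell markers among the GFP-hi libraries. Of 13 markers in that list 11 were listed, and their RPKM summed to 157, 156 and 177 in GFP-hi and to 193, 202 and 217 in GFP-lo. Of these 11 genes, none was higher and 4 were lower in GFP-hi by limma at an adjusted p under 0.05 (Cxcr3, Il18r1, Il18rap and Prf1), where 2.46% of all genes compared were higher and 1.49% lower. Il2rb, the most abundant of the 11, went the other way, with 79.4, 69.5 and 75.1 against 68.6, 61.5 and 56.4 RPKM (difference 0.26, limma adjusted p = 0.13). Eomes barely differed (-0.01). Ly6c2, with 17.0, 21.6 and 31.1 RPKM in GFP-hi, contributed most to the higher sum of the third library. Klrg1 and Gzmm of that list had no row, and Cd44 was between 2.17 and 2.62 RPKM in all 6 libraries. The part of these markers in the Prss12 and Nacc2 differences was not tested.

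Immediate early and heat-shock genes set the second library of each group apart, and the cause was not tested. Of 16 immediate early and heat-shock genes 15 were listed and 1, Socs3, was called lower, with summed RPKM of 2876, 6855 and 2983 in GFP-hi and 3812, 7744 and 3820 in GFP-lo. In the 4 other libraries the differences were -1.67 for Prss12 and -1.13 for Nacc2. Markers of the labelled cell type were present: 6 of 7 CD8 T cell genes were listed, none of them called, with sums of 1750 to 1845 RPKM in GFP-hi against 1733 to 1779 RPKM in GFP-lo. All 7 naive T cell markers were listed, with 1 called lower (Il7r). Markers of other cells were few. No NK cell marker of 6 had a row, 2 of 8 B cell markers did (sums of 12.5 to 14.2 against 10.9 to 11.3 RPKM, nearly all Cd79b), and so did 2 of 8 myeloid markers (18.8 to 24.6 against 18.8 to 21.0 RPKM, nearly all Cst3). Of 5 CD4 T cell markers 2 were listed, Cd40lg, which was lower, and Izumo1r, which was higher, while Cd4 itself had no row. Of 7 thymocyte markers 5 were listed and 2 were higher (Cd24a and Ccr9). Dntt of that list went the other way (difference -0.39, limma adjusted p = 0.083), Cd8b1 barely differed (-0.01), and Rag1 was below the level for the comparison. Of 6 erythroid or platelet markers 2 were listed and Car2 was higher. The cells were sorted on reporter fluorescence, which follows protein, whereas the values here are RNA. At the RNA level Nr4a1 and the reporter transcript overlapped between the groups. They had 37.0 to 90.9 against 33.8 to 84.9 RPKM for Nr4a1 and 214 to 262 against 191 to 216 RPKM for GFP (means 231 and 207).

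The question of which genes share the pattern of each member was then addressed with Pearson's r on the log2(RPKM + 1) scale. Over 6 libraries in 2 separate groups such an r mainly holds the group difference that both genes share, so it is a description and is given with the r left after each group's mean is subtracted. Prss12 and Nacc2 themselves had an r of 0.979 over the 6 libraries and of 0.477 with the group means subtracted. Within GFP-hi r was 0.957 and within GFP-lo 0.981, each over 3 libraries, a number at which high values are common. Both members had the same order of libraries in each group: in GFP-hi the first was lowest and the third highest, and in GFP-lo the second was lowest and the third highest.

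The 10 genes most like Prss12 over the 6 libraries were Arsb, Itga6, Nr1d2, Usp48, Cyp2d22, Aebp2, Prf1, Mfsd6, Vipr1 and Pip4p2, with r from 0.986 to 0.994. They fell much less than Prss12 did, by 0.13 (Usp48) to 0.66 (Nr1d2) on the log2 scale. Arsb, a lysosomal sulfatase, had 3.35, 3.43 and 3.98 RPKM in GFP-hi against 4.99, 5.29 and 5.28 RPKM in GFP-lo. Its r was 0.934 with the group means subtracted, 0.995 within GFP-hi and 0.264 within GFP-lo. Itga6, the integrin alpha 6 chain, had 7.05, 7.12 and 7.82 against 10.8, 11.04 and 11.8 RPKM. Both were picked for likeness to Prss12, and like it they were highest among the GFP-hi libraries in the third. Prf1, which encodes perforin, the pore-forming protein of cytotoxic granules, had 20.7, 22.9 and 24.3 against 34.0, 33.0 and 35.2 RPKM. The most opposite genes were Zdhhc15, Tbcel, Cd38, Elk3 and Glb1. Cd38, which encodes an NAD-consuming surface enzyme, had 3.21, 2.65 and 2.16 RPKM in GFP-hi against 0.587, 0.667 and 0.619 RPKM in GFP-lo, a difference of 1.17 and an r of -0.993.

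With the group means subtracted, and among genes with an r of at least 0.9 over the 6 libraries, the closest to Prss12 were Cnksr3 (0.976), Slc9a7 (0.968), Trim65 (0.953), Clic4 (0.938) and Arsb (0.934). Slc9a7, a sodium-proton exchanger of the Golgi, had 1.31, 1.22 and 2.04 RPKM in GFP-hi against 2.50, 2.28 and 2.68 RPKM in GFP-lo. The third of its GFP-hi libraries thus stood above the other GFP-hi libraries, as that of Prss12 did. Slc9a7 was picked for such likeness. Clic4, a chloride intracellular channel protein, had 5.71, 6.07 and 7.39 against 7.82, 8.21 and 8.68 RPKM. Within GFP-hi alone the highest r belonged to Efcab14, Pdia3, Kat2a, Apobec1 and Ttll3, and within GFP-lo alone to Cyp51, Dnmbp, Ccdc124, Acta1 and Disc1. None of these 10 had an r above 0.642 over the 6 libraries, and Cyp51 had -0.935.

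The 10 genes most like Nacc2 were Ass1, Cbx7, Pip4p2, Arhgap5, Sgpp1, Ftx, Ifngr1, Aebp2, Slc6a19 and Itga6, with r from 0.992 to 0.999. Ass1, which encodes argininosuccinate synthase of arginine synthesis, had 7.52, 7.82 and 7.91 RPKM in GFP-hi against 14.0, 13.4 and 14.9 RPKM in GFP-lo. Cbx7, a Polycomb protein that reads methylated histone H3, had 8.41, 8.49 and 8.84 against 13.3, 12.5 and 13.8 RPKM. Both followed the order of the Nacc2 values in each group, and both stayed close with the group means subtracted (Ass1 0.979, Cbx7 0.981), as did Aars (0.979), Arhgap5 (0.968) and Cd274 (0.951), which encodes the ligand PD-L1. Ifngr1, a chain of the interferon gamma receptor, had 48.5, 52.1 and 52.2 against 73.4, 73.1 and 77.4 RPKM, and an r of 0.760 with the group means subtracted. Slc6a19, the second largest fall on the log2(RPKM + 1) scale, had 3.51, 2.93 and 3.59 against 10.8, 9.32 and 10.8 RPKM. The most opposite genes were Vamp3, Lgals1, Alyref, Dpp4 and Rhot2. Lgals1, which encodes galectin-1, had 59.3, 62.9 and 55.5 RPKM in GFP-hi against 28.5, 30.3 and 26.2 RPKM in GFP-lo, an r of -0.997. Within GFP-hi alone Samd8, Pqlc2, Hps4, Fbxo25 and Msrb1 were closest to Nacc2, and within GFP-lo alone Micu3, Slc52a2, Zc3h6, Pyroxd1 and Sdhaf2.

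**Figure D3:**
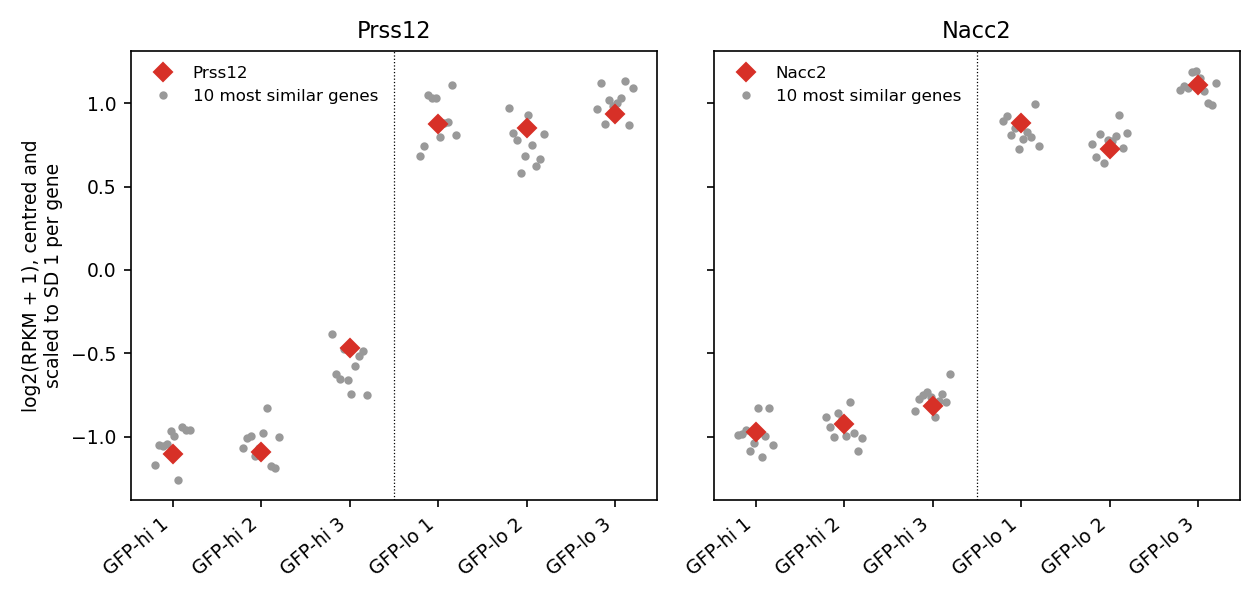
Centred and scaled log2(RPKM + 1) of Prss12 and Nacc2 (red diamonds) and of the 10 genes most like each (grey points, spread sideways) in each library. The third GFP-hi library stands above the other GFP-hi libraries for Prss12 and the genes picked for their likeness to it. For Nacc2 the GFP-hi libraries lie closer together.

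Itga6, Aebp2 and Pip4p2 were on both lists of 10. An r of at least 0.9 over the 6 libraries was reached by 263 genes with Prss12 and 292 genes with Nacc2, leaving out the members, and 219 genes were in both sets, which is 83.3% of the first and 75.0% of the second. Both members were chosen for the same group difference and had an r of 0.979 with each other, so a large overlap follows from that choice. Nacc2 was ranked 24 among the genes most like Prss12, and Prss12 was ranked 34 among those most like Nacc2. After subtraction of the group means, 61 genes reached 0.9 with Prss12 and 101 with Nacc2. In 3 libraries alone an r of 0.9 was common: with Prss12 it was reached by 8.03% of genes in GFP-hi and 11.5% in GFP-lo, and with Nacc2 by 7.39% and 10.5%. Only 20 genes for Prss12 (0.21%) and 14 for Nacc2 (0.15%) reached it over the 6 libraries and in each group. Each of these counts includes the other member.

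**Figure D4:**
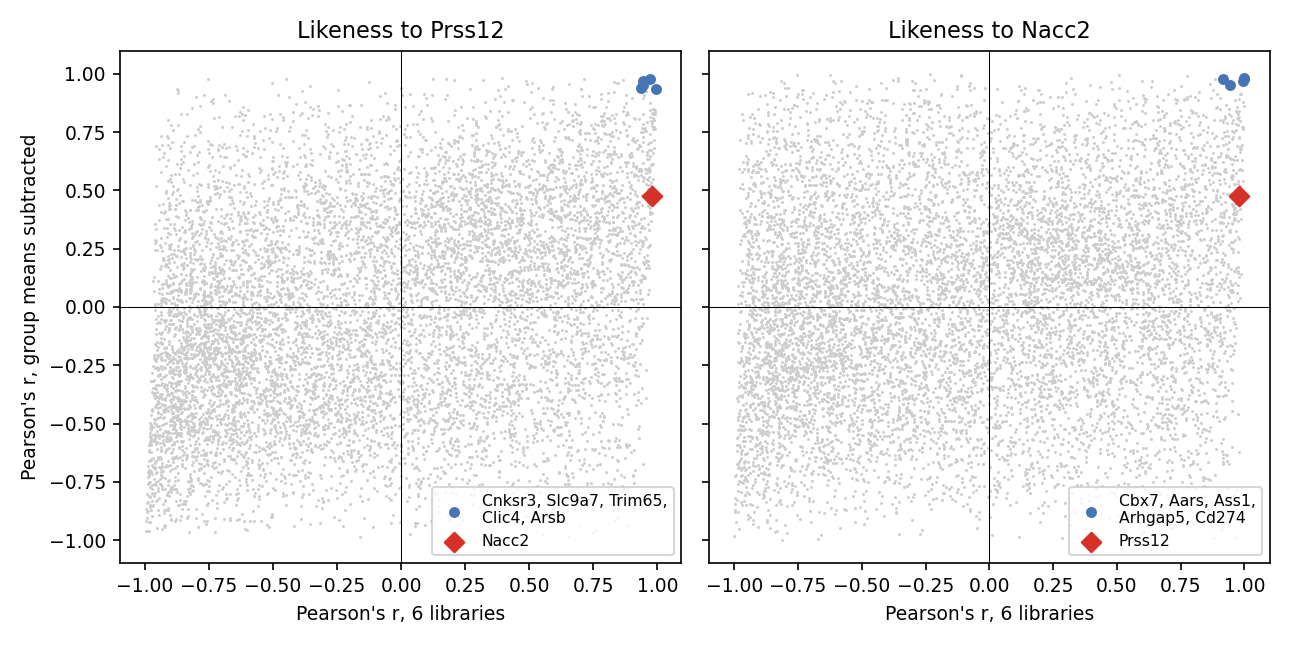
Pearson's r of every gene with Prss12 and with Nacc2 over the 6 libraries (horizontal axis) and after each group's mean is subtracted (vertical axis), with the 5 highest by the latter among genes with an r of at least 0.9 over the 6 libraries in blue and the other member as a red diamond. Fewer genes reach 0.9 once the means are subtracted, 61 for Prss12 and 101 for Nacc2.

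Genes related to each member were next compared between the populations by limma over all 9351 genes, of which 369 (3.95%) were called at an adjusted p under 0.05. The counts below leave the members out. Of 69 genes gathered for trypsin-family serine proteases 9 were listed and, besides Prss12, 5 were compared. Prss16, taken in by its name, is not of this family and had no row. Among the 5 compared, 1 rose, none fell, and the median difference was 0.35, where that of all genes was 0.02. With no filter on level 8 were compared, 4 positive and 4 negative, and the median was 0.06. The riser was Gzmb, granzyme B, a protease of cytotoxic granules, with 3.82, 3.38 and 3.26 RPKM in GFP-hi against 0.949, 1.67 and 2.24 RPKM in GFP-lo (difference 0.81, standard error 0.17, limma adjusted p = 0.038). That is the direction opposite to Prss12. Its call was lost in 4 of 6 fits without 1 library, those without GFP-hi replicate 1, 2 or 3 or GFP-lo replicate 2 (adjusted p up to 0.12), and with a pseudocount of 0.1 (adjusted p = 0.054). Klk8, neuropsin, another protease known from the nervous system, had 26.8, 33.1 and 28.5 against 25.0, 22.0 and 21.5 RPKM, and its difference of 0.35 missed the threshold (limma adjusted p = 0.073). Prss30, below the level for the comparison, had 0.519, 0.622 and 0.573 against 1.12, 1.05 and 1.22 RPKM.

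Of 36 serine protease inhibitors 12 were listed and 7 compared, with a median difference of 0.12. That median depended on the filter: it was -0.04 over all 12 with no filter and 0.21 with a mean of at least 5 RPKM. Serpinb9, the inhibitor of granzyme B, fell, with 2.60, 3.26 and 3.35 against 4.39, 4.66 and 4.40 RPKM (difference -0.43, standard error 0.084, limma adjusted p = 0.031), and none rose. Its call was lost in 5 of 6 fits without 1 library, all but the one without GFP-hi replicate 2 (adjusted p up to 0.12). The neuroserpin gene Serpini1 had 7.42, 8.26 and 7.82 against 6.61, 6.84 and 6.62 RPKM, a difference of 0.20 that missed the threshold (limma adjusted p = 0.11).

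Agrin is the known substrate of neurotrypsin, and its gene did not pass the test, with overlapping groups. Agrn had 2.79, 2.25 and 3.26 RPKM in GFP-hi against 2.57, 1.90 and 2.92 RPKM in GFP-lo (difference 0.12, standard error 0.13, limma adjusted p = 0.67). Of 19 genes for agrin, its receptors and their adaptors 11 were listed and 9 compared, and the median difference was -0.03, which turned positive with a mean of at least 5 RPKM (0.02), with array quality weights (0.06), and when GFP-hi replicate 2 (0.10) or GFP-lo replicate 3 (0.06) was left out. The 1 gene that fell was Sntb1, which encodes beta-1-syntrophin, an adaptor of the dystrophin complex, and none rose. It had 8.69, 8.38 and 8.68 RPKM in GFP-hi against 13.9, 14.1 and 13.0 RPKM in GFP-lo (difference -0.61, standard error 0.056, limma adjusted p = 0.0018), and its adjusted p stayed between 0.0048 and 0.014 when each library was left out in turn. The related Sntb2 (difference -0.26, limma adjusted p = 0.10) and the dystroglycan gene Dag1 (-0.30, adjusted p = 0.057) missed the threshold. Dag1 had 4.08, 3.44 and 3.58 against 4.85, 4.71 and 4.78 RPKM, with no overlap between the groups. Lrp4, the agrin receptor, was at 0.436 RPKM or less in every library and was not compared.

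Prss12 shares the scavenger receptor cysteine-rich domain with the T-cell surface receptors Cd5 and Cd6 and the kringle with coagulation proteases. Of 30 genes with either domain 12 were listed and, besides Prss12, 9 compared, with a median difference of 0.03 that was -0.06 with no filter and -0.0052 without GFP-hi replicate 1. Cd6 rose, with 161, 158 and 156 against 138, 125 and 124 RPKM (difference 0.30, standard error 0.059, limma adjusted p = 0.034), and the related Cd5 had a difference of 0.23 (adjusted p = 0.071). Cd163l1, a scavenger receptor, fell, with 1.76, 2.51 and 2.50 against 4.01, 3.55 and 4.97 RPKM (difference -0.67, standard error 0.13, limma adjusted p = 0.029). Each of these calls was lost in 5 of 6 fits without 1 library, that of Cd6 in all but the fit without GFP-lo replicate 1 and that of Cd163l1 in all but the fit without GFP-hi replicate 2 (adjusted p up to 0.14 and 0.089). With quantile normalization the Cd6 call was lost too (limma adjusted p = 0.082).

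Nacc1, the closest relative of Nacc2, had 6.39, 5.14 and 6.89 RPKM in GFP-hi against 7.05, 5.54 and 5.97 RPKM in GFP-lo, overlapping groups with a difference of -0.01 (standard error 0.11, limma adjusted p = 0.97). It was more abundant than Nacc2 in every library. Of 60 genes gathered for nuclear BTB-domain and BEN-domain proteins 49 were listed and 36 compared besides Nacc2, with a median difference of -0.02. The 36 include Zbtb8os (difference 0.02), which was taken in by its name and encodes neither domain. The 1 that rose was Bcl6, a BTB zinc finger repressor, with 2.34, 2.29 and 2.79 against 1.75, 1.39 and 1.38 RPKM (difference 0.47, standard error 0.091, limma adjusted p = 0.031), and none fell. Its call was lost in 4 of 6 fits, those without GFP-hi replicate 1 or 3 or GFP-lo replicate 2 or 3 (adjusted p up to 0.12). The lowest difference among the 36 was -0.27, where Nacc2 had -1.08, the fall for which it was chosen.

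Of 15 NuRD subunit genes 14 were listed and compared, and 1 of them rose, Rbbp7, a histone-binding subunit. It had 77.2, 78.0 and 75.1 RPKM in GFP-hi against 65.6, 62.5 and 65.0 RPKM in GFP-lo (difference 0.25, standard error 0.049, limma adjusted p = 0.032). Over the complex the median difference was 0.07, and all 14 differences were positive, but small, and that count was 13 with median centring, 11 with quantile normalization and 10 with trimmed mean of M values scaling. The Rbbp7 call was lost in each of the 6 fits without 1 library (adjusted p from 0.056 to 0.14). Mdm2 had 13.7, 14.9 and 13.8 against 14.6, 14.3 and 14.0 RPKM (difference -0.02, standard error 0.055, limma adjusted p = 0.90). Trp53 had 36.7, 42.8 and 37.8 against 42.8, 40.4 and 41.0 RPKM (difference -0.08, limma adjusted p = 0.55), and for both genes the groups overlapped. Of 35 genes for p53, its regulators and its targets 29 were listed and 27 compared, with a median of -0.06. Bbc3, which encodes the death-promoting protein PUMA, fell, with 14.2, 13.7 and 11.8 against 27.2, 20.6 and 17.4 RPKM (difference -0.66, standard error 0.15, limma adjusted p = 0.049), and none rose. That call was lost in 5 of 6 fits, all but the one without GFP-lo replicate 3 (adjusted p up to 0.13), and with no filter, a mean of at least 5 RPKM, no trend or robust eBayes (adjusted p from 0.054 to 0.060).

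**Figure D5:**
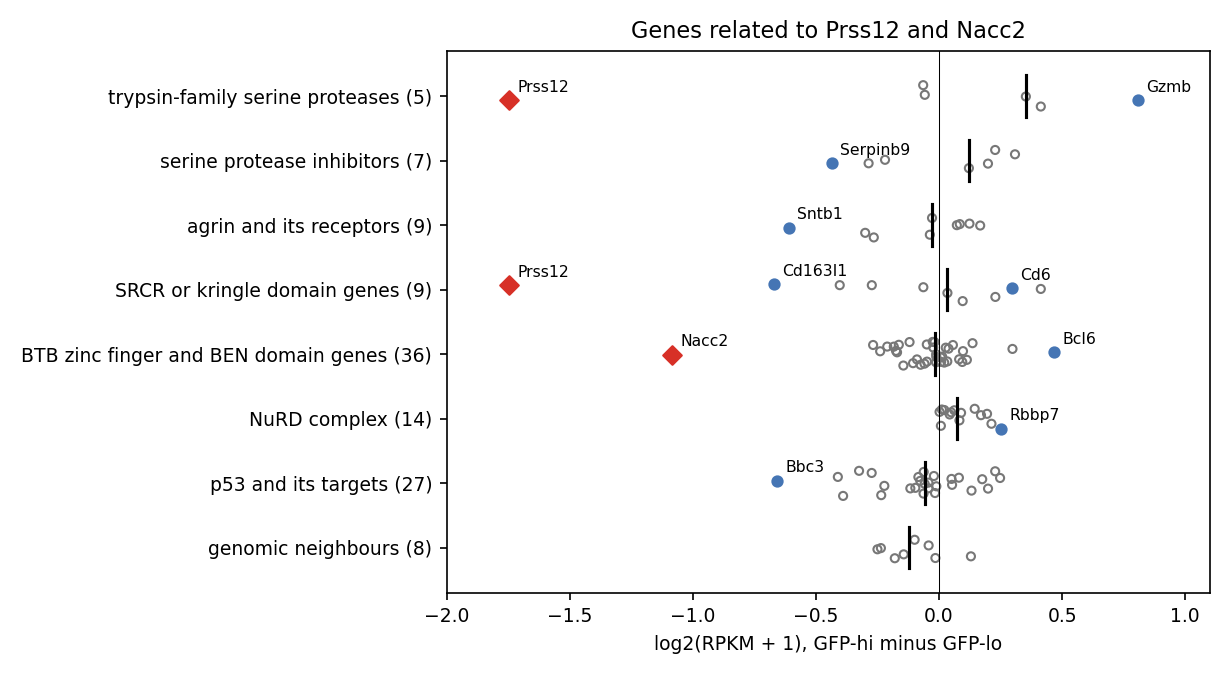
Differences between GFP-hi and GFP-lo on the log2(RPKM + 1) scale for genes related to Prss12 and Nacc2, by list, with the number compared besides the members. Red diamonds are Prss12 and Nacc2, filled blue points have a limma adjusted p under 0.05, open circles do not, and black bars are list medians without the members. Prss12 and Nacc2 lie below every other gene of their lists, which follows from their choice for large falls.

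The genes beside Prss12 and Nacc2 on their chromosomes had smaller differences. Both members were chosen for large falls, and 6 genes in all fell by 1 or more, so this follows largely from that choice. Of the 5 nearest protein-coding genes on each side of each member, 20 in all, 8 were listed and compared. By limma none was called, and 2 had an unadjusted p under 0.05, as did 1885 (20.2%) of all genes. The median difference was -0.12, where that of all genes was 0.02, and 7 of 8 were negative. Mettl14, the nearest listed gene to Prss12, which encodes a subunit of the RNA adenosine methyltransferase, had 2.90, 2.87 and 3.01 RPKM in GFP-hi against 3.18, 3.25 and 3.18 RPKM in GFP-lo (difference -0.10). Sec24d (-0.14) and Usp53 (-0.18) lie beyond it, and none of the 5 genes on the far side of Prss12 had a row. On either side of Nacc2, Ubac1 had 15.8, 16.5 and 16.0 against 16.2, 16.0 and 16.5 RPKM (difference -0.01), and Tmem250-ps had 5.61, 5.03 and 4.43 against 7.42, 5.49 and 5.66 RPKM (-0.25). Camsap1 (-0.04), Qsox2 (-0.24) and Gpsm1 (0.13) complete the set. The limma adjusted p values of the 8 genes were 0.10 or more.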

How the data were processed

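Poly-A RNA of sorted cells had been made into SMART-seq v4 cDNA and Nextera XT libraries, per the labels' protocols. The authors deposited RPKM values, 1 column per library, per the file headers. The submitters' processing notes name STAR and mm10. The counter and annotation are not given in the sources used here. The members, gene lists and alternatives were chosen with earlier results of these data known.

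The 9351 of 11162 genes whose RPKM averaged 1 or more were compared on log2(RPKM + 1) with limma 3.58.1 in R 4.3.3 (lmFit and eBayes, trend on, no covariates, two-sided, Benjamini-Hochberg over all genes compared, threshold 0.05). Columns were matched to samples by name. Replicate numbers were given in record order and pair nothing. The fit was tested on simulated data.

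Depth was recovered from the step of 1 read in RPKM, with 800 genes that have 1 transcript in GENCODE M21. In each library 85.6% to 89.5% of low values were whole reads to within 0.1, where chance gives 20%. The settings (values under 150 reads, transcripts under 5000 bases, a search from 15000000 to 50000000 reads) were chosen after narrower ones gave no clear step. Lengths are unknown for most genes, so counts were not recovered for the whole table and no count test was run.

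Named genes were Prss12 and Nacc2, those ranked beside them, for each the 10 highest and 5 lowest r and, among genes with an r of at least 0.9 over the 6 libraries, the 5 highest r with group means subtracted (predicted genes passed over), called genes of each list, Agrn, Nacc1, Mdm2, Trp53 and the neighbours. The 5 closest genes within each group, Klk8, Prss30, Serpini1, Dag1, Sntb2, Lrp4, Cd5, Nr4a1 and GFP were added after their values were seen. Promoters came from RefSeq (GRCm38.p6). Alternatives changed the pseudocount, filter, scaling, variance model, likeness measure and libraries. Figures were drawn with matplotlib 3.10.9.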

Additional observations from a re-analysis of the deposited data

How the results depend on the processing

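Over all alternatives run, the Prss12 and Nacc2 differences kept their sign. With a pseudocount of 0.1 they were -2.21 and -1.77, and Nacc2 was -1.37 with 0.5 and -1.25 with quantile normalization. As plain log2 ratios of the means, added after seeing the data, they were -2.20 and -1.92. Without 1 library Prss12 ranged from -1.95 to -1.64 and Nacc2 from -1.14 to -1.02. The lists of similar genes were less stable. Of the 10 genes like Prss12, 0 were kept with Spearman's rho, 6 on the RPKM scale and 1 to 6 without 1 library (1 without GFP-hi replicate 1 or 2). Of those like Nacc2, 3 were kept with rho and 5 to 7 without 1 library.

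Genes higher and lower in GFP-hi numbered 119 and 83 with a mean RPKM of at least 5, and 783 and 499 with array quality weights. In the 4 libraries with lower heat-shock genes, added after seeing the data, they numbered 47 and 43. Without 1 library they ranged from 73 to 173 and from 60 to 125, lowest without GFP-lo replicate 2 and GFP-hi replicate 1. Array quality weights gave 3 called proteases, 4 inhibitors, 3 agrin genes, 5 SRCR or kringle genes, 5 BTB or BEN genes, 2 NuRD genes, 4 p53 genes and 1 neighbour. A mean of at least 5 gave 0, 0, 1 and 0 for proteases, inhibitors, SRCR or kringle genes and BTB or BEN genes, and 0 p53 genes. Proteases were 0 with a pseudocount of 0.1 and 2 with no filter, and BTB or BEN genes 2 with quantile normalization or no trend. The p53 list had 0 with no filter, no trend or robust eBayes. Without 1 library the counts were 0 to 2 proteases, 0 to 1 inhibitors, 1 to 1 agrin genes, 0 to 3 SRCR or kringle genes, 0 to 1 BTB or BEN genes, 0 to 0 NuRD genes, 0 to 1 p53 genes and 0 to 0 neighbours. The cause was not tested. Nacc1 turned positive with array quality weights (0.16) and without GFP-hi replicate 2 (0.09) or without GFP-lo replicate 1 (0.07), but its p never passed the threshold. No paired analysis was run because the labels give no replicate numbers. Numbers in record order were not taken as pairs, and a fit blocked on them was not run, although heat-shock genes were high in the second library of both groups. With 3 libraries a group, small differences could not be detected, and intervals from recovered reads cover counting error only.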
